A study of Mus musculus with 16 samples.

Results

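The forkhead transcription factors are a family of DNA-binding proteins named by the prefix Fox, a subfamily letter and a number. The protein-coding genes of the RefSeq table whose symbols follow that pattern, with letters a to s, numbered 44 of 21887, and all 44 were followed here through 12 peak lists from mouse embryonic stem cells (mESCs). The study examined how histone modifications change when these cells lose METTL14, the partner of METTL3 in the complex that writes N6-methyladenosine on RNA. The cells, of strain C57BL/6, were labelled Mettl14 Control or Mettl14 CKO, and both groups were grown with serum, LIF, 3 µM CHIR99021 (a GSK3 inhibitor) and 1 µM PD0325901 (a MEK inhibitor). H3K4me3, H3K27ac and H3K27me3 were each mapped by ChIP-seq (sequencing of immunoprecipitated chromatin) in 2 control and 2 knockout libraries, and the labels of the H3K27ac libraries give the H3K4me3 antibody. The sources used here do not give the allele, the Cre or the number of cell clones behind each group. The replicates are known only by number, so p-values measure the spread between these libraries, which may be technical.

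Forkhead proteins bind DNA through a winged-helix domain. Several of them, the FoxA proteins above all, can bind sites in closed chromatin, and many specify a tissue in the embryo: gut and liver (FoxA), vessels and mesenchyme (FoxC, FoxF), neural crest and placodes (FoxD, FoxE, FoxI). Others act in most cells, such as the FoxO factors, which insulin signalling keeps out of the nucleus, FoxM1 in the cell cycle and the FoxK, FoxJ2, FoxJ3, FoxN2 and FoxP4 factors. In embryonic stem cells, Polycomb repressive complex PRC2 places H3K27me3 on the CpG-rich promoters of silent developmental regulators, often with H3K4me3 (a bivalent promoter), while active promoters carry H3K4me3 and H3K27ac.

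The results turn on a few promoters, so the 250 bases upstream of the annotated start are shown for 6 members, from RefSeq promoters of build GRCm38.p6, 5′ to 3′ on the strand of the gene, with each CpG in capitals. They are the start that carried both H3K4me3 and H3K27me3 in both knockout lists (Foxp1), and those within 1 kb of which the narrower knockout peak was widest (of H3K4me3 for Foxo3, Foxo1 and Foxa3, of H3K27me3 for Foxe3 and Foxc1). Of the 44 members 28 had a start in that table. Those without included Foxb1, Foxc2, Foxe1, Foxf1, Foxh1, Foxj1, Foxk1, Foxl1, Foxm1, Foxn2, Foxo4, Foxo6, Foxp2, Foxq1 and Foxs1.
Foxo3, chr10:42276696-42276945, minus strand: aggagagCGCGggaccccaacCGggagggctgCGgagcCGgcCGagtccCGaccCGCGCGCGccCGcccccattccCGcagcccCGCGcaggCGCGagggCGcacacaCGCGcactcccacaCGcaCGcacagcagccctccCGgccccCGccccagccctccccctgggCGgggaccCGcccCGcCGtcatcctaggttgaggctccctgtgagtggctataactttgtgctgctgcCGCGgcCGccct
Foxo1, chr3:52268087-52268336, plus strand: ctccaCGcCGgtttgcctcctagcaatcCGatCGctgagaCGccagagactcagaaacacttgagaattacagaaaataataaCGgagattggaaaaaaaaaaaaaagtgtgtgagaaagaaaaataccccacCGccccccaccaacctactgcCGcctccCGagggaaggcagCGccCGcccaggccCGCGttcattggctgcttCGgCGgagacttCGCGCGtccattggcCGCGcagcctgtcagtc
Foxa3, chr7:19023540-19023789, minus strand: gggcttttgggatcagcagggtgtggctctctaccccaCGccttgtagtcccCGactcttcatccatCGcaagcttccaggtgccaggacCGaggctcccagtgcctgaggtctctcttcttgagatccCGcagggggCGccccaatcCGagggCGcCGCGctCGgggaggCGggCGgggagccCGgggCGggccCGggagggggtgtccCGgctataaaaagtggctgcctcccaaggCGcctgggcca
Foxp1, chr6:99520994-99521243, minus strand: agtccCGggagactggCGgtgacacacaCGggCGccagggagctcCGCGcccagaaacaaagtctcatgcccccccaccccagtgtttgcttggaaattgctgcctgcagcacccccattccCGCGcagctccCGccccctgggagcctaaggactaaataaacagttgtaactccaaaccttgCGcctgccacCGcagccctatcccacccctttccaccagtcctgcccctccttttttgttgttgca
Foxe3, chr4:114926068-114926317, minus strand: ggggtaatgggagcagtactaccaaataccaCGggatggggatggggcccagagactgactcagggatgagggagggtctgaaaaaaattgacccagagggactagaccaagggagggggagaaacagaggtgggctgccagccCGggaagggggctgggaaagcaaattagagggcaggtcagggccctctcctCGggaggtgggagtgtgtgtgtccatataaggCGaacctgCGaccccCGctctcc
Foxc1, chr13:31806396-31806645, plus strand: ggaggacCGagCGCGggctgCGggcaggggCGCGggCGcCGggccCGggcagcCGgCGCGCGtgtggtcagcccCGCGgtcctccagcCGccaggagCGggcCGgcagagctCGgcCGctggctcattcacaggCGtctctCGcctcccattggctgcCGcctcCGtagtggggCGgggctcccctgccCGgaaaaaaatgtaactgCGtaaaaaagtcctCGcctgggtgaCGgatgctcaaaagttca

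A gene was read as called in a list when a peak came within 1 kb of the first or last base of its RefSeq span, here its gene ends. Its value is the width of the widest such peak. The lists hold no peak heights, so a width of 501 bp is the narrowest call and a gene without a value had no peak. The H3K4me3 lists held 2431 to 2859 peaks in control and 8055 to 8131 in knockout cells. The H3K27me3 lists held 6312 to 7203 and 11349 to 11446, and the H3K27ac lists 13520 to 15541 and 15058 to 15271. Read depth is unknown, and what sets the list lengths was not tested, so a call made in the knockout alone is read below beside the share of all genes with such a call. At the ends of Mettl14 the H3K4me3 lists held no peak in control cells and peaks of 1074 and 1295 bp in knockout cells, which does not check a deletion. Of 12 markers of naive mESCs, 7 carried H3K27ac in all 4 lists (6.91% of all genes did). In at least 1 list it was called at 11 of these 12, against 34.6% of all genes. Not all naive markers were alike, since H3K27me3 was called in both knockout lists at 2 of the 12 (7.84% of all genes). Neither of these 2 had H3K27ac in a knockout list. In both control lists H3K27me3 was called at 0 of the 12 (3.62% of all genes). H3K27ac was called in at least 1 list at 0 of 10 fibroblast, 1 of 8 primitive endoderm and 5 of 9 trophectoderm markers. Among the last, Gata3 and Tfap2c had it in both knockout lists and neither control list, as had 2.88% of all genes. Gata3 also had H3K27me3 in the knockout lists alone (627 and 3209 bp). The part of cells of these other types in the results was not tested. With 2 lists against 2, the exact two-sided permutation test over 6 assignments cannot give a p below 0.33, so no difference here could pass 0.05.

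H3K27me3 was the mark found at most forkhead genes. It was called at 20 members in each control list, at 22 in knockout replicate 1 and at 25 in knockout replicate 2, which is 45.5%, 45.5%, 50.0% and 56.8% of the 44. Of all protein-coding genes 7.31%, 8.25%, 12.7% and 13.0% were called in the same lists. At least 1 list called 31 of 44 members (70.5%), against 20.3% of all genes. Both control lists called 14 members (background 3.62%) and both knockout lists 20 (background 7.84%), and 10 were called in all 4 lists (22.7%, background 2.18%). The mean number called was 20 ± 0 (SD, n = 2) in control and 23.5 ± 2.12 (SD, n = 2) in knockout lists, a difference of 3.5 genes (exact permutation p = 0.33) that was 2 without knockout replicate 2 and 1.5 with the lists trimmed to equal length by keeping their widest peaks.

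**Figure D1:**
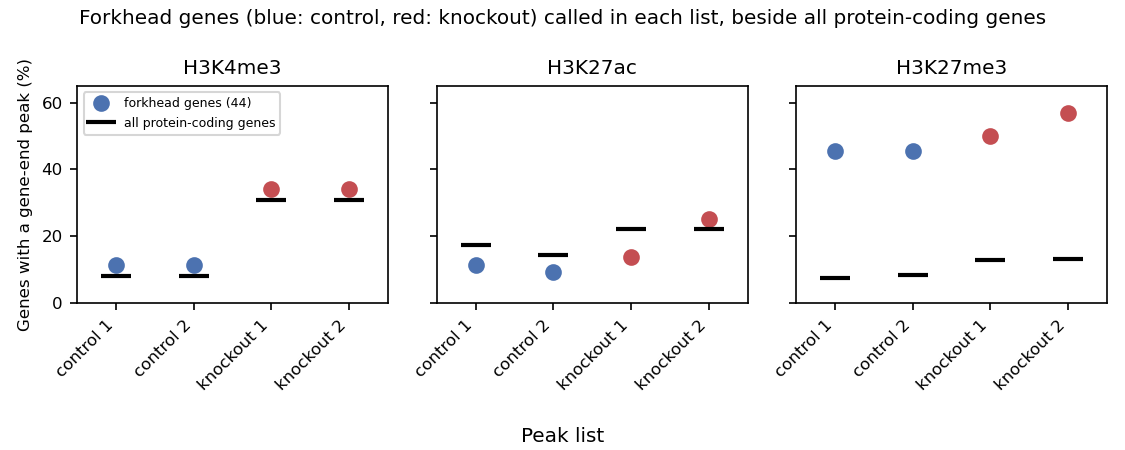
Share of the 44 forkhead genes with a gene-end peak in each of 12 lists (points; vertical axis in percent), beside the share of all protein-coding genes (black bars). The H3K27me3 points lie at 45.5% to 56.8%, far over bars of 7.31% to 13.0%, and the H3K4me3 points lie close to their bars in both conditions.

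**Figure D2:**
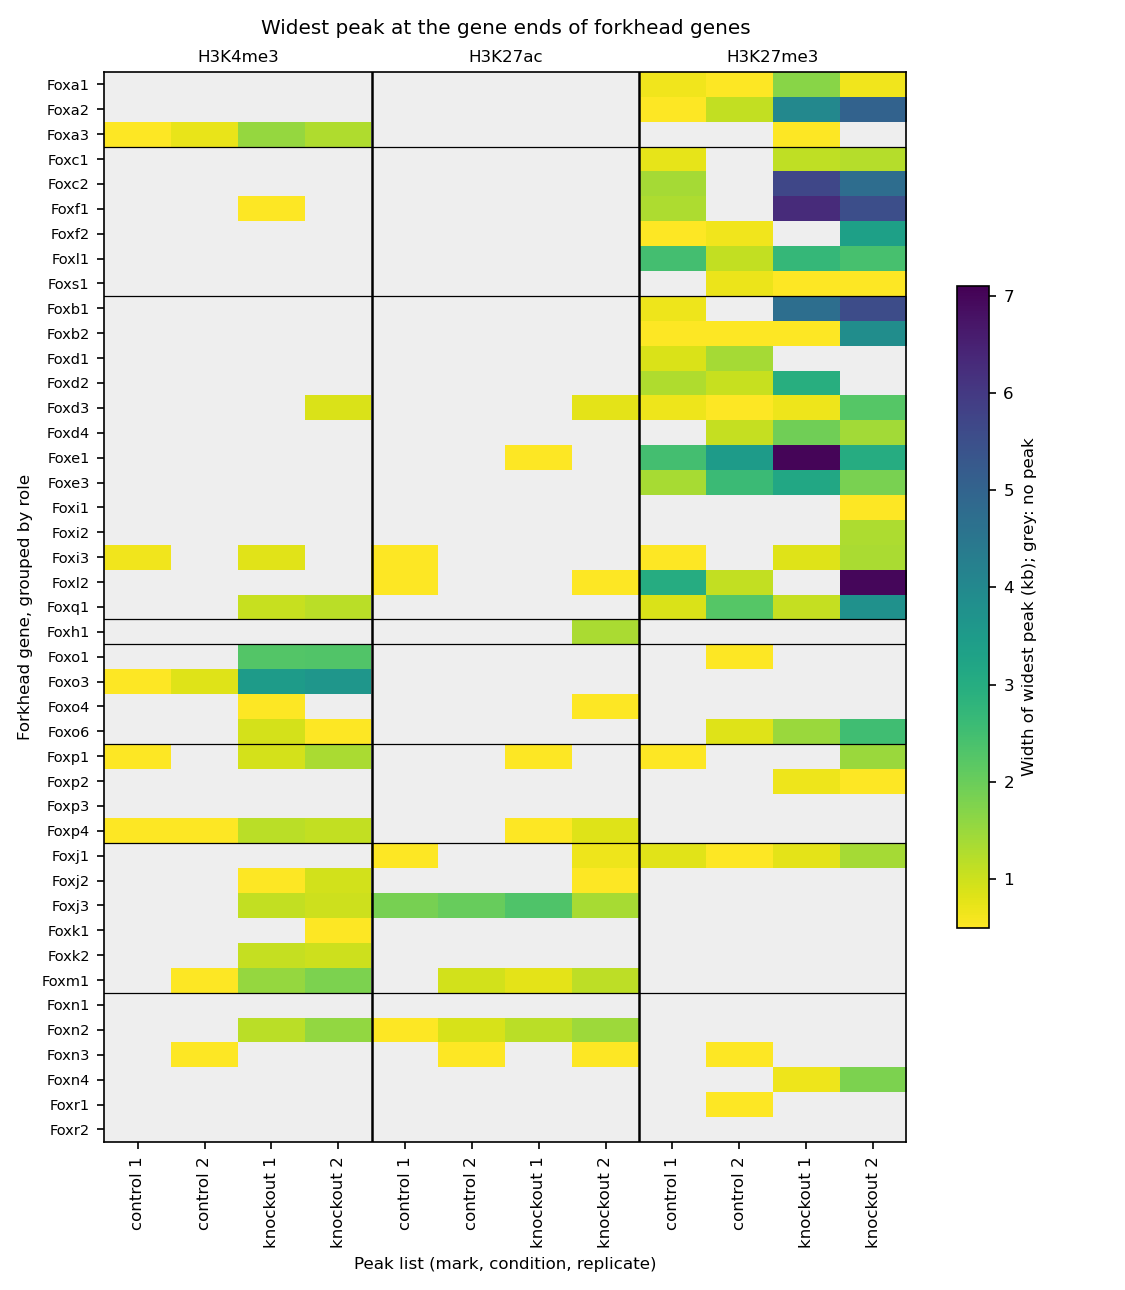
Width in kb of the widest gene-end peak of the forkhead genes reported by name (rows, grouped by role) in each list (columns); grey means no peak. H3K27me3 fills the upper rows of tissue-specifying factors, and H3K4me3 and H3K27ac lie mostly in the lower rows of FoxO, FoxP, FoxJ, FoxK, FoxM and FoxN genes.

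The marks divided the family by role. All 23 members placed in the endoderm, mesoderm and ectoderm groups had an H3K27me3 call in at least 1 list, 3 of 3, 6 of 6 and 14 of 14. Of the other 21 members 8 had one: Foxo1, Foxo6, Foxp1, Foxp2, Foxj1, Foxn3, Foxn4 and Foxr1. Of all genes 20.3% had one, so these 21 were not short of the mark. H3K4me3 in both knockout lists showed the opposite spread, with 2 of the 23 (Foxa3 and Foxq1) and 10 of the 21, against 24.0% of all genes. These role groups come from textbook functions and were drawn up with earlier results of these data known, so the division is a description and was not tested. It depends on the placement, since Foxn4, Foxp2 and Foxj1, which also act in particular tissues, were put among the 21.

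The FoxA pioneer factors of endoderm differed among themselves. Foxa2, needed for definitive endoderm, node and floor plate (chromosome 2, 148042877 to 148046969), had H3K27me3 peaks of 501 and 1102 bp in the control lists and 4023 and 5018 bp in the knockout lists. The groups did not overlap, and the mean width was 5.64-fold larger in the knockout (log2 2.50, but 3.17 without control replicate 2 and 2.04 without control replicate 1). The 4023 bp peak of knockout replicate 1 covered all 3 annotated starts, beside a second peak of 3366 bp at the far end, and a 962 bp peak of control replicate 2 lay over the inner starts. The 5018 bp peak of replicate 2 lay at the far end alone, 3148 bp from the nearest start. Within 10 kb of the span of Foxa2 the mark covered 1002 and 4125 bp in control and 7389 and 6020 bp in knockout lists. The groups were separate by this measure as well, with a smaller ratio than that of the widest peaks. Foxa1, a liver and lung factor (chromosome 12, 57540628 to 57548029), had 642 and 501 bp against 1662 and 644 bp, in every list at its 3′ end and 5457 bp to 6066 bp from its annotated start. The groups did not overlap, but 642 and 644 bp are nearly the same width. Foxa3, a hepatic factor (chromosome 7, 19013283 to 19023539), had a single H3K27me3 call, of 501 bp in knockout replicate 1, and H3K4me3 in all 4 lists as given below.

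**Figure D3:**
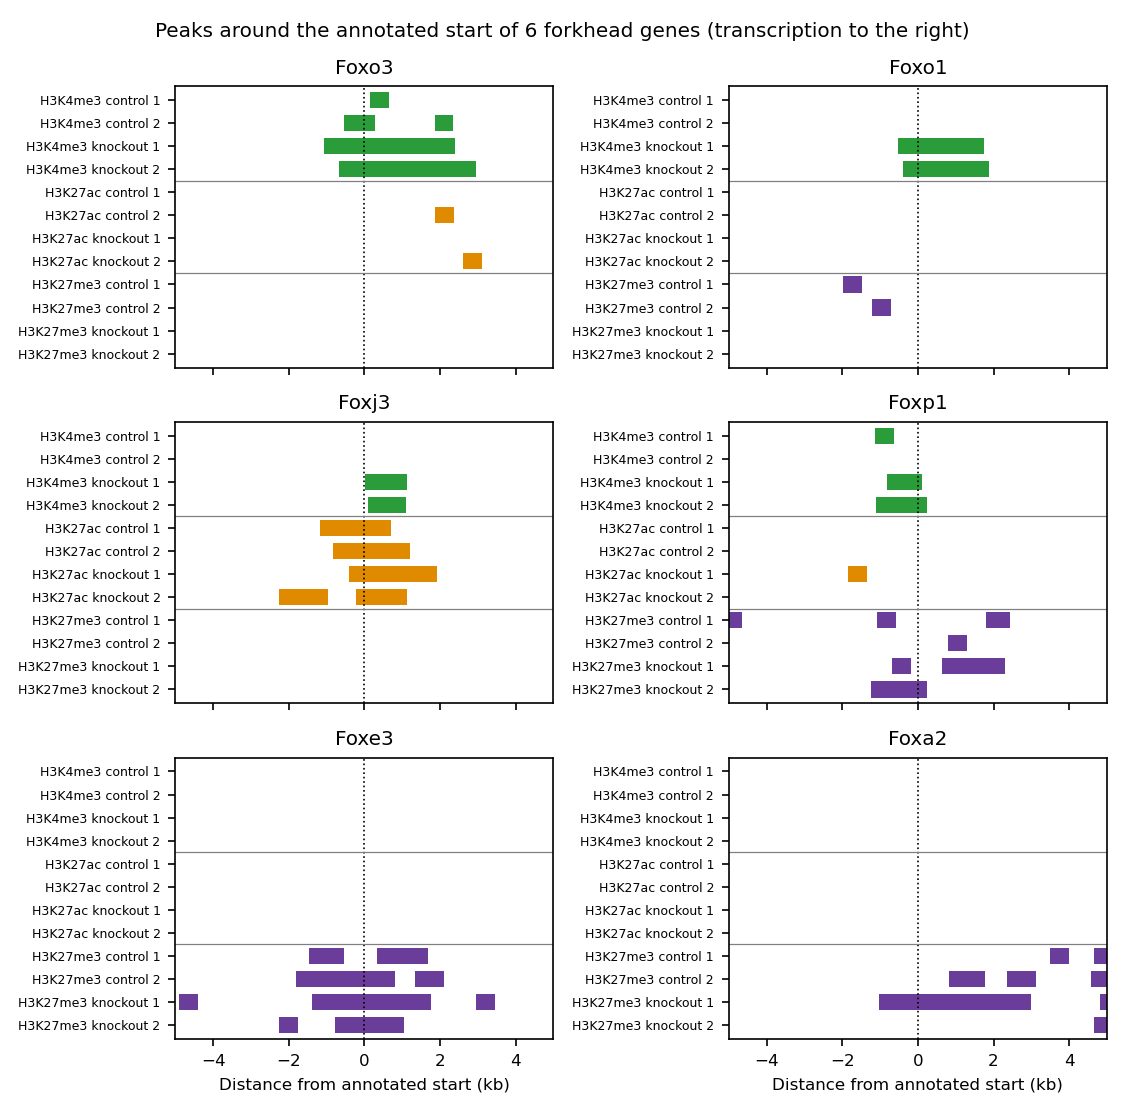
Peaks within 5 kb of the annotated start of 6 forkhead genes (horizontal axis in kb, transcription to the right), a row per list, in green for H3K4me3, orange for H3K27ac and purple for H3K27me3; for Foxa2 and Foxp1 the outermost start is used. Foxo3, Foxo1 and Foxj3 show H3K4me3 over or just past the start in both knockout lists, Foxe3 shows H3K27me3 alone, and Foxp1 shows both marks.

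The widest knockout H3K27me3 peaks among the mesoderm and vascular factors lay in the gene cluster Foxf1, Foxc2 and Foxl1 of chromosome 8. Foxf1, a factor of lung and gut mesenchyme (121084386 to 121088154), had no peak in control replicate 2, 1317 bp in replicate 1, and 6296 and 5512 bp in the knockout lists. Foxc2, a factor of lymphatic vessels (121116171 to 121118895), had 1396 bp, none, 5685 and 4745 bp. Both genes were thus called in 3 lists, with the widest peak several times wider in both knockout lists than in the control list that called them. Within 10 kb of their spans every list held the mark. It covered 4136 and 2727 bp around Foxf1 in control and 9665 and 11049 bp in knockout lists. Around Foxc2 it covered 7287 and 1109 bp against 9435 and 6958 bp, so by this measure the groups overlapped at Foxc2. Foxl1, a factor of gut mesenchyme (121127685 to 121130644), was called in all 4 lists, at 2464 and 1109 bp against 2712 and 2423 bp. There the knockout range overlapped that of the controls.

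The neighbours Foxf2 and Foxc1 of chromosome 13 differed from each other. Foxc1 (31806646 to 31810635), which acts in eye, skull and vessel development, had peaks of 752 bp and none in control and 1143 and 1241 bp in knockout lists, 461 bp to 764 bp upstream of the start and so beyond the bases printed above. Foxf2 (31625816 to 31631406), a palate and gut factor, had 501 and 633 bp in control lists, none in knockout replicate 1 and 3347 bp in replicate 2, where a peak lay over its start. Both control calls of Foxf2 lay at its 3′ end and did not overlap each other. Foxs1, expressed in pericytes, had none and 697 bp in control and 501 and 501 bp in knockout lists.

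All 14 members placed in the ectoderm, neural and placode group had an H3K27me3 call, and 6 of them were called in all 4 lists. The name of the group is loose, as it also holds factors of thyroid (Foxe1), kidney stroma (Foxd1) and ovary (Foxl2). Foxe1, a thyroid factor (chromosome 4, 46343644 to 46345774), had 2481 and 3477 bp in control and 7008 and 3001 bp in knockout lists. It was wide in every list and the groups overlapped. Foxe3, a lens factor (chromosome 4, 114924443 to 114926067), had 1351 and 2603 bp against 3130 and 1819 bp, also with overlapping groups, and in 3 of the lists the peak covered the start. Foxq1, a hair shaft and stomach factor (chromosome 13, 31558170 to 31560976), had 870 and 2253 bp against 1088 and 3767 bp, again overlapping. Foxb2 (chromosome 19, 16872316 to 16873830) had 501 bp in both control lists and in knockout replicate 1, and 3869 bp in replicate 2, so its 4.36-fold difference in mean width came from 1 list (log2 2.12, and 0.00 without it). Foxd3, a neural crest factor also active in early pluripotent cells (chromosome 4, 99656299 to 99658671), had 669 and 501 bp against 655 and 2228 bp, and its control peaks did not overlap in position.

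The other members of this group were called in fewer lists. Foxb1, a diencephalon and spinal cord factor (chromosome 9, 69757710 to 69760940), had 673 bp and none in control and 4715 and 5563 bp in knockout lists, where a peak touched both ends of the gene. Foxd4 had 1074 bp in control replicate 2 and 1932 and 1426 bp in the knockout lists, and Foxi3, a factor of ectodermal placodes, had 501 bp in control replicate 1 and 818 and 1330 bp. Foxi1 (501 bp) and Foxi2 (1317 bp) were called in knockout replicate 2 alone.

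Outside the tissue groups most H3K27me3 calls were narrow or in 1 list. Foxo6 had 831 bp in control replicate 2, 1486 bp in knockout replicate 1 and 2531 bp in replicate 2, the last 2 at opposite ends of the gene. Foxp1 had 501 bp in control replicate 1 and 1483 bp in knockout replicate 2. Foxo1, Foxn3 and Foxr1 had 501 bp in control replicate 2 alone.

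Against this direction, 4 members called in both control lists were missing from at least 1 knockout list. Of the 14 members with an H3K27me3 peak in each control list, 10 also had one in each knockout list. Over all protein-coding genes the same held for 477 of 792, so such absences were no more frequent in the family than elsewhere. Foxd1, a factor of kidney stroma and retina (chromosome 13, 98354245 to 98356705), had 865 and 1380 bp in the control lists and no gene-end peak in either knockout list. With the window of 1 kb this makes it the only control-only member of any mark (background for H3K27me3 0.315%). Foxd2 had 1297 and 1051 bp in control lists, 2970 bp in knockout replicate 1 and none in replicate 2. Foxl2, the ovary and eyelid factor (chromosome 9, 98955607 to 98958126), had 3001 and 1093 bp in control lists, none in knockout replicate 1 and 6983 bp in replicate 2. Foxf2 is the fourth, with values given above. The wider surroundings of Foxd1 were not free of the mark, since 3251 and 501 bp within 10 kb of its span were called in the knockout lists, against 2326 and 3554 bp in control lists.

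Knockout-only calls of H3K27me3, in both knockout lists and neither control list, were found at 2 members (4.55%, background 2.43%). Foxn4, a factor of retinal and spinal interneurons (chromosome 5, 114254164 to 114274418), had 669 and 1811 bp, 280 and 487 bp from its annotated start, and Foxp2, a factor of brain circuits for vocal learning (chromosome 6, 14901349 to 15441977), had 660 and 501 bp. Among the 10 members called in all 4 lists the median log2 ratio of knockout to control width was 0.88, against 0.93 over the 477 genes of that class. All 10 were wider on average in the knockout, where 86.2% of the 477 were. The groups were separate, with the knockout above, at 3 of them, Foxa1 and Foxa2 included (30%, against 50.7% of the 477). Foxj1, the master factor of motile cilia (chromosome 11, 116330704 to 116335499), had 803 and 501 bp against 766 and 1396 bp, at an end it shares with Rnf157, and its knockout peaks did not overlap in position. Counting an absent peak as 0, both knockout lists exceeded both control lists at 12 members (27.3%, background 5.27%) and lay below them at 1 (background 0.443%). These shares also count genes without the mark. With a call in at least 1 list were 31 members and 4440 of all genes, and 12 and 1154 of these were above.

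**Figure D4:**
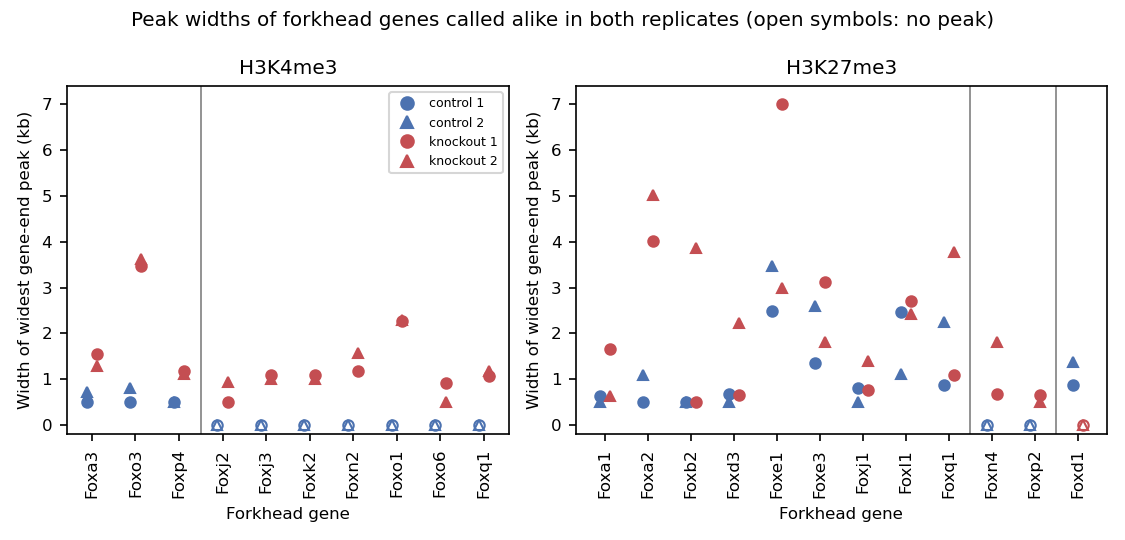
Width in kb of the widest gene-end peak in each list for forkhead genes reported by name and called in all 4 lists, in both knockout lists alone, or in both control lists alone (separated by vertical lines), for H3K4me3 and H3K27me3. Foxo3 has the widest H3K4me3, at 3469 and 3626 bp in knockout lists, and the H3K27me3 replicates of a condition often lie far apart, as at Foxe1 (7008 and 3001 bp).

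H3K4me3 was called at 5 members in each control list and at 15 in each knockout list, which is 11.4% and 34.1% of the family. Of all genes 8.01% and 8.08% were called in the control lists, and 30.8% and 30.9% in the knockout lists. The difference of 10 genes (5 ± 0 against 15 ± 0, SD, n = 2 each; exact permutation p = 0.33) is thus close to what all genes showed, and it was 2 with the lists trimmed to equal length in the same way. At least 1 list called 19 members (43.2%, background 38.6%). Both control lists called 3 members (background 3.07%), both knockout lists 12 (27.3%, background 24.0%), and 7 were knockout-only (15.9%, background 13.5%). The share called in all 4 lists was 6.82% (3 members, background 2.90%), and none was control-only (background 0.0274%). With an absent peak counted as 0, widths in both knockout lists exceeded both control lists at 12 members (background 22.9%) and lay below them at 0 (background 0.0320%).

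The FoxO factors, effectors of insulin signalling, held the widest H3K4me3 peaks of the family. Foxo3 (chromosome 10, 42181845 to 42276695) had 501 and 810 bp in control and 3469 and 3626 bp in knockout lists, all within 157 bp of its start. The knockout peaks were 5.41-fold wider (log2 2.44) and covered the printed promoter. They were wider than 99.8% and 99.9% of the peaks of their lists. Foxo1 (chromosome 3, 52268337 to 52350109) was knockout-only, with 2273 and 2299 bp over its start, wider than 96.6% and 97.4% of their lists. Within 2500 bp of the same start H3K27me3 was called in both control lists and in neither knockout list. Foxo6, a brain FoxO factor (chromosome 4, 120267078 to 120287261), was knockout-only with 927 and 501 bp. Foxo4 had 501 bp in knockout replicate 1 alone.

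Of the FoxP repressors, Foxp4 (chromosome 17, 47867133 to 47924632) was called in all 4 lists, at 501 and 501 bp against 1180 and 1118 bp (2.29-fold), at its start in each. Foxp1, a B-cell and heart factor (chromosome 6, 98925342 to 99522746), had 501 bp and none in control and 922 and 1326 bp in knockout lists. Foxp3, the factor of regulatory T cells, had no gene-end call of any mark, like Foxn1 of the thymus and Foxr2, and these 3 are 6.82% of members where 40.8% of all genes had none.

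The group of FoxJ, FoxK and FoxM genes held 3 knockout-only members. Foxj3 (chromosome 4, 119539661 to 119629119) had 1097 and 1010 bp, Foxk2 (chromosome 11, 121259987 to 121309900), a regulator of metabolism and autophagy, had 1090 and 1006 bp, and Foxj2 (chromosome 6, 122820184 to 122845366) had 501 and 948 bp. All lay at the annotated start. Foxm1, which drives mitotic genes (chromosome 6, 128362994 to 128375886), had none and 501 bp in control and 1549 and 1798 bp in knockout lists, at an end it shares with Rhno1. Foxk1 had 501 bp in knockout replicate 2 alone. Foxn2 (chromosome 17, 88440704 to 88490533) was knockout-only with 1184 and 1572 bp. In the tissue-specifying groups Foxa3 was called in all 4 lists, at 501 and 724 bp against 1555 and 1296 bp (2.33-fold), but these peaks lay 220 bp to 932 bp from its start and also touched an end of Sympk. Shared ends of this kind do not tell which gene a peak belongs to. Other calls were those of Foxi3 in both libraries numbered 1 (640 bp in control, 788 bp in knockout), Foxf1 in knockout replicate 1 (501 bp), Foxd3 in knockout replicate 2 (865 bp) and Foxn3 in control replicate 2 (501 bp).

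H3K27ac was called at 5 and 4 members in the control lists and at 6 and 11 in the knockout lists, against 17.4%, 14.4%, 22.1% and 22.0% of all genes, while the members' shares were 11.4%, 9.09%, 13.6% and 25%. The means were 4.5 ± 0.707 and 8.5 ± 3.54 (SD, n = 2 each), and the difference of 4 genes (exact permutation p = 0.33) rested largely on knockout replicate 2, since without that list it was 1.5 and without knockout replicate 1 it was 6.5. At least 1 list called 14 members (31.8%, background 34.6%). Both control lists called 2 members (background 9.08%), both knockout lists 4 (background 14.4%), and 2 were called in all 4 lists (4.55%, background 6.91%). No member was control-only (background 0.493%). Widths in both knockout lists exceeded both control lists at 2 members (background 7.39%) and lay below them at 0 (background 1.18%).

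Foxj3 held the widest of these, with 1856 and 2025 bp in control and 2330 and 1357 bp in knockout lists over an end it shares with Frg2f1. Knockout replicate 2 held a second peak of 1295 bp beside it, and the groups overlapped (log2 ratio -0.07). Foxn2 had 501 and 889 bp against 1172 and 1461 bp (1.89-fold), and its groups did not overlap. Foxp4 was the single knockout-only member (2.27%, background 2.88%), at 501 and 819 bp over its start, and Foxm1 had none and 963 bp against 769 and 1146 bp. Foxh1, the DNA-binding partner of SMAD2 and SMAD3 in Nodal signalling (chromosome 15, 76667829 to 76671614), had a single call of any mark at its ends, H3K27ac of 1346 bp in knockout replicate 2, shared with Kifc2. Foxd3 had H3K27ac of 772 bp in the same list, as had Foxj2 and Foxo4 at 501 bp. Single or unpaired calls of 501 to 667 bp were left at Foxe1, Foxi3, Foxj1, Foxl2, Foxn3 and Foxp1. No member of the endoderm or mesoderm groups had a gene-end H3K27ac peak in any list.

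By the marks called in both knockout replicates, 4 members had H3K4me3 and H3K27ac (9.09%, background 10.8%): Foxj3, Foxm1, Foxn2 and Foxp4. In each of the 8 cases the peaks of the marks overlapped. For 6 members H3K4me3 was the only mark called in both (13.6%, background 12.5%): Foxa3, Foxj2, Foxk2, Foxo1, Foxo3 and Foxp1. Of these, Foxa3 and Foxp1 had H3K27me3, and Foxj2 and Foxp1 H3K27ac, in a single knockout list. H3K27me3 was the only mark called in both at 18 members (40.9%, background 7.08%), and 14 had no mark called in both (31.8%, background 65.4%). The first 2 shares lie near the background, the others away from it.

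H3K4me3 and H3K27me3 were called together in both knockout lists at 2 members, Foxq1 and Foxo6 (4.55%, background 0.676%, or 0.617% without H3K27ac in both), and in both control lists at none (background 0%). Of genes with H3K27me3 in both knockout lists, 2 of 20 members and 148 of all 1717 also had H3K4me3. Among genes with H3K27me3, the joint call was thus about as frequent in the family as elsewhere. At Foxq1 the marks overlapped by 934 and 1188 bp in the knockout lists. Its H3K4me3 peaks were 1066 and 1188 bp wide and absent from the control lists, while H3K27me3 was present in all 4. At Foxo6 they overlapped by 496 bp in knockout replicate 1 and lay 350 bp apart in replicate 2. In single lists the marks overlapped at Foxd3 (799 bp) in knockout replicate 2, at Foxf1 (501 bp) in knockout replicate 1, at Foxi3 (501 bp) in control and knockout replicate 1, and at Foxn3 (236 bp) in control replicate 2. At Foxp1 they overlapped by 1326 bp in knockout replicate 2 and by 440 bp in control replicate 1. Foxp1 missed the count of joint calls in both knockout lists, as its H3K27me3 peaks in knockout replicate 1 lay over 1 kb from the end of its span. Around its start printed above, inside the span, both marks lay within 1 kb in both knockout lists, H3K27me3 at 1654 and 1483 bp. In each knockout list peaks of the 2 marks overlapped there. Control lists held H3K27me3 there at 501 bp each, and H3K4me3 in replicate 1 alone.

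The bases called around the genes were counted in the spans with 10 kb either side, which merged into 42 loci of 3104 kb. H3K27me3 covered 54.5 kb and 51.0 kb of them in control and 103.6 kb and 116.9 kb in knockout lists, 2.09-fold more (log2 1.06; exact permutation p = 0.33). The whole lists differed by 2.15-fold, and the forkhead loci held 1.11 ± 0.160% of H3K27me3 bases in control and 1.07 ± 0.0619% in knockout lists (SD, n = 2 each). Thus their H3K27me3 differed in number of bases about as the whole lists did. H3K4me3 covered 4.15 kb and 5.19 kb against 27.1 kb and 26.6 kb, 5.78-fold more (log2 2.53; exact permutation p = 0.33), where the whole lists differed by 4.80-fold. H3K27ac covered 23.1 kb and 23.2 kb against 28.7 kb and 30 kb, 1.27-fold more (log2 0.34; exact permutation p = 0.33), where the whole lists differed by 1.12-fold. In every mark the mean kb covered in the loci differed by more than the spread between replicates, and the groups did not overlap. Gene by gene, H3K27me3 bases were higher in both knockout lists than in both control lists at 16 of 44 members (36.4%, background 12.3%), H3K4me3 bases at 15 (34.1%, background 31.7%) and H3K27ac bases at 5 (11.4%, background 11.2%). They were lower at 1 (background 0.786%), 0 (background 0.114%) and 2 members (background 3.81%). In this count Foxc2 and Foxl1 share bases, as do Foxd2 and Foxe3. The shares also count genes without the mark. At least 1 list held H3K27me3 bases at 33 members and at 8216 of all genes, and 16 and 2691 of these were higher.

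Genes around the FoxO factors were counted from lists drawn up with earlier results known. Of 20 upstream genes of FoxO signalling 4 had knockout-only H3K4me3 (background 13.5% of all genes), namely Pik3r1, Pdpk1, Akt2 and Mdm2. Of 20 FoxO target genes 7 were knockout-only for H3K4me3 (background 13.5%), among them Cdkn1a, Sod2 and Cat, and 1, Trp53inp1, was called in all 4 lists (background 2.90%). H3K27me3 was called in all 4 lists at none of the upstream genes and at 1 target, Ccnd1 (background 2.18%).

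Of 16 partners and targets of FOXH1 in the Nodal pathway, 3 carried H3K27ac in all 4 lists (background 6.91%), namely Nodal, Gdf3 and Tdgf1. Likewise 3 carried H3K27me3 in all 4 lists (background 2.18%), Gsc, Lhx1 and Eomes, all regulators of gastrulation. Lefty2 was its only control-only gene for H3K27ac (501 and 501 bp, background 0.493%). Of 16 FoxA partners in endoderm and floor plate, 3 carried H3K27me3 in all 4 lists (background 2.18%), Nkx2-1 and Pdx1 among them. None carried H3K27ac in both control (background 9.08%) or both knockout lists (background 14.4%), and 1 carried H3K4me3 in both knockout lists (background 24.0%).

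The starts that carried different marks also differed in sequence. Over the 33 annotated starts of 28 members, the 300 bases around the start held a median of 36 CpG dinucleotides (range 22 to 59) at the 8 starts with H3K4me3 alone in both knockout lists. The median was 17 (range 10 to 32) at the 6 with H3K27me3 alone and 12.5 (range 3 to 27) at the 18 with neither, and 13 over all 21263 protein-coding starts. Foxk2 had the most, 59, and Foxr2 the fewest, 3. In the 250 bases printed above, Foxo3 held 31 CpGs, Foxc1 29, Foxo1 20, Foxa3 18, Foxp1 11 and Foxe3 6. The ranges overlap, and these are counts over few starts with no test. A forkhead motif, TGTTTAC on either strand, was in 1 of the 33 windows of 300 bases (3.03%, that of Foxa1) and in 3.01% of all protein-coding starts.

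**Figure D5:**
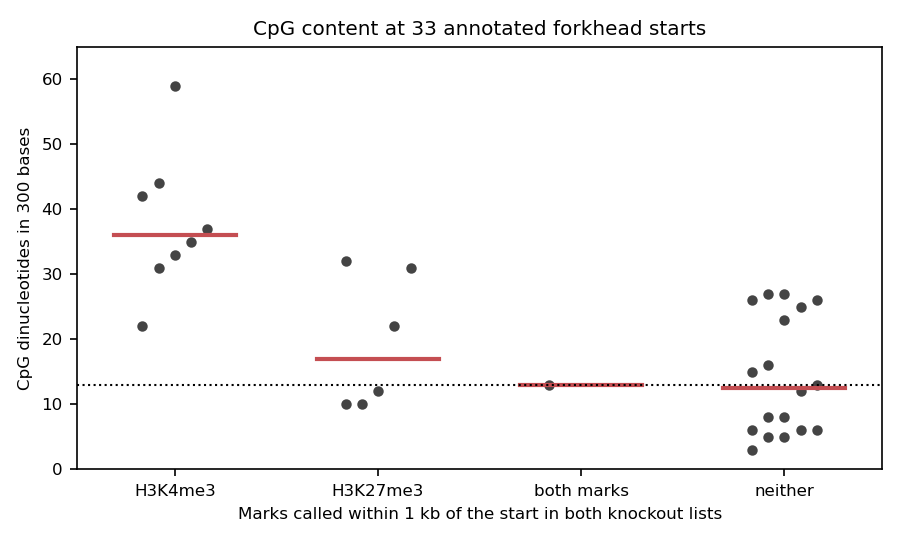
CpG dinucleotides in the 300 bases around each of 33 annotated forkhead starts (points), grouped by the marks called within 1 kb of the start in both knockout lists; red bars are medians and the dotted line is the median of all protein-coding starts (13). The H3K4me3 starts have a median of 36 and the H3K27me3 starts of 17, with overlapping ranges.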

How the data were processed

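ChIP-seq peak lists of 3 marks from mESCs were used, 2 control and 2 knockout per mark, grouped by mark, genotype and replicate number in the titles. Build mm10 and the tools HOMER, Bowtie2 2.4.1, SAMtools, Trimmomatic 0.38 and CASAVA are named, with no order, per the submitters' processing notes. The sources used here do not give peak-calling settings, nor whether inputs or spike-in reads entered. Since H3K27ac libraries are labelled with the antibody to H3K4me3, the mark was taken from the title. The 4 input libraries were not analysed here. The deposited lists are BED tables per library, and their deposited score column holds 1 for every peak, so positions and widths are the only measurements.

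Genes, spans and starts came from RefSeq tables of GRCm38.p6, the assembly of mm10, with no exons or UTRs. Calls, classes and covered bases were computed in Python 3.11.15 with NumPy 2.4.6, with an overlap of at least 1 bp, and the counting was tested on simulated data. Other windows, flanks, overlaps and list lengths, a replicate block and leaving out each list were tried. A locus is the span with 10 kb either side. Named in full were members that for some mark were knockout-only, control-only or called in all 4 lists, or that carried H3K4me3 and H3K27me3 in both lists of a condition. Other members and the genes beside them were described after their values were seen. A few genes enter the counts but are not reported here by name. The members, roles and gene lists were chosen with earlier results of these data known.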

Additional observations from a re-analysis of the deposited data

How the results depend on the processing

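The mean difference in members called per list kept its direction for each mark under every window, list and overlap setting tried, and so did the log2 ratio of bases called in the loci. The groups were not separate in every setting. At equal length H3K27me3 was called at 20 and 19 members in control and 19 and 23 in knockout lists. With annotated starts only, H3K27ac was called at 4 and 1 members in control and 3 and 6 in knockout lists. The number of knockout-only members depended more on the setting. For H3K4me3 it was 7, against 4 with annotated starts only (28 members) and 2 with the lists trimmed to equal length by keeping the widest peaks (Foxn2 and Foxo1). For H3K27ac it was 1, against 0 in the wider 50% of each list. For H3K27me3 it was 2, against 1 with a window of 2500 bp and 1 at equal length. Control-only members depended on the window as well. With 2500 bp Foxd1 was no longer control-only for H3K27me3, while Foxo1 was, and Foxo3 was control-only for H3K27ac. When single lists were dropped in turn, knockout-only members numbered 8 to 10 for H3K4me3, 1 to 5 for H3K27ac and 3 to 7 for H3K27me3. Fewer lists need fewer calls or absences, and the other causes were not tested. At equal list length 6 and 8 members carried H3K4me3 in the knockout lists, against 5 and 5 in control. That setting keeps the widest peaks of the longer lists.

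Of 122 alternatives for the widths of the 15 single cases called in all 4 lists, added after the data were seen, 5 turned the direction of the log2 ratio. They were Foxj3 H3K27ac with a window of 2500 bp (0.21) and without knockout replicate 2 (0.26), Foxe3 H3K27me3 without control replicate 1 (-0.07) or knockout replicate 1 (-0.12), and Foxq1 H3K27me3 without knockout replicate 2 (-0.52). Without 1 list at a time Foxe3 ranged from -0.12 to 0.87 and Foxq1 from -0.52 to 1.48. The cause was not tested. With the replicate number as a block the differences are the same by construction (10, 4 and 3.5 members called; log2 2.53, 0.34 and 1.06) and the smallest possible exact p is 0.5. Same-numbered deviations had correlations of 0.000 for H3K4me3, -0.009 for H3K27ac and -0.012 for H3K27me3. These values cannot tell whether libraries of the same number were handled together, and the labels do not say.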

Other observations

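H3K27ac was also called around forkhead genes away from their ends. These loci were picked after their values were seen. Around Foxo3, where H3K4me3 was widest in the knockout lists, H3K27ac covered 2942 and 3781 bp in control and 1002 and 501 bp in knockout lists. At Foxn3, a checkpoint-related factor with a long span (chromosome 12, 99190081 to 99563667), it covered 6719 and 6870 bp against 5225 and 4206 bp. They were the only 2 of 44 members with fewer H3K27ac bases in both knockout lists than in both control lists (4.55%, background 3.81%). In the other direction, Foxp1 had 1923 and 808 bp against 3499 and 3389 bp, and at an annotated start inside its span (position 99028298 of chromosome 6) both knockout lists held H3K4me3 (501 and 632 bp) and H3K27ac (994 and 501 bp). Control lists held no H3K4me3 there and H3K27ac in replicate 1 alone (780 bp).

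Foxp3 had no gene-end peak, yet H3K27ac was called within 10 kb of its span in all 4 lists (1162 and 642 bp against 1210 and 1276 bp). Which gene these peaks belong to was not tested. Within 10 kb of Foxo1, H3K27me3 covered 501 and 1002 bp in control lists and none in knockout lists, the only member with fewer bases of that mark in both knockout lists (background 0.786%).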
